A study of Homo sapiens with 6 samples.

Results

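*POU2F3*, *TNS1*, *ALDH3B2* and *CLCA2* were 4 of the 7 genes with the largest fall after *DUSP6* siRNA in MDA-MB-453 cells. The 4 rows were found by their symbols among the 22807 genes of the deposited table, and all 4 were among the 12862 genes whose mean value over the 6 libraries reached 1. They had been chosen for the size of this fall, so their own differences are given as a description, with no test. MDA-MB-453 is an established HER2+ breast cancer cell line. It was sequenced in 6 RNA libraries, 3 after scrambled siRNA and 3 after *DUSP6* siRNA, and the labels give all 6 as the wild-type line, with no difference between the groups other than the siRNA. The time between transfection and harvest is not given in the sources used here. The study used 3 different *DUSP6* siRNAs and 3 different scrambled controls for this profile, so the libraries of a group are separate transfections, and which library received which siRNA is not given. The spread between libraries, on which the p-values rest, thus includes differences between siRNAs. Effects of the siRNAs other than the loss of *DUSP6* were not tested.

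POU2F3 is a POU-domain transcription factor that binds octamer DNA, is expressed in skin and defines the chemosensory tuft cell lineage. TNS1 is a tensin, an adaptor that links integrins at adhesion sites to actin filaments. ALDH3B2 belongs to the aldehyde dehydrogenases, enzymes that oxidise reactive aldehydes. CLCA2 belongs to the proteins once taken for calcium-activated chloride channels and now known as secreted or shed regulators of such channels. It is expressed in breast epithelium and is a known target of p53.

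RefSeq promoter sequence on GRCh38.p14 was at hand for *CLCA2*, with 1 start, and for *TNS1*, with 5 starts. The 250 bases before the *CLCA2* start and before the *TNS1* start listed farthest upstream are printed because both genes were lower after *DUSP6* siRNA while their windows differ widely in composition. The *CLCA2* window is chr1:86423921-86424170 on the plus strand and the *TNS1* window is chr2:218010276-218010525 on the minus strand. The annotated *TNS1* gene reaches farther upstream, to 218033982, so this window lies inside it. Which *TNS1* start these cells use was not tested. Capitals mark matches to TATAAA, to AGAACA, a hexamer of the glucocorticoid receptor element, and to GGGCGG, the SP1 box, on either strand.
CLCA2: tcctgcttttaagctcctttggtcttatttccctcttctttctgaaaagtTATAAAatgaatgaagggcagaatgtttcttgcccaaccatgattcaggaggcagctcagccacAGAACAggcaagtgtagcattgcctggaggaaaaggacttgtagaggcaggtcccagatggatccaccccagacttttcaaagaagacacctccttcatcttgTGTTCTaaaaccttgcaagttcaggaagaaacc
TNS1: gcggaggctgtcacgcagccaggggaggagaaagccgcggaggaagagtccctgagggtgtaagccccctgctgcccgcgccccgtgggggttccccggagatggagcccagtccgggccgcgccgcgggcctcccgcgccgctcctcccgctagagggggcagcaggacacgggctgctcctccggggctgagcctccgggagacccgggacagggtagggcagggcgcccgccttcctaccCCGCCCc

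The *CLCA2* window held 44.8% G and C and 0 CpG pairs, and 6.06% of the 35116 windows of all genes likewise held none. The *TNS1* window held 76.0% G and C and 24 CpG pairs, against medians of 58.0% and 11 over all windows. AGAACA occurred in the *CLCA2* window from 136 to 131 and, on the other strand, from 33 to 28 bases before the start. It occurred in 12.4% of all windows, and TATAAA, found in the *CLCA2* window from 200 to 195 bases before the start, in 10.7%. GGGCGG ended 2 bases before the *TNS1* start and occurred in 42.6% of all windows. The other 4 *TNS1* windows held GGGCGG in 2 and AGAACA in 1. None of the 6 windows held the octamer ATGCAAAT (1.63% of all windows), the FOX motif TGTTTAC (2.98%), the ETS motif CCGGAA (14.5%), the AP-1 motif TGACTCA (4.2%) or the E2F motifs TTTCCCGC or TTTGGCGC (1.93%). These matches describe letters and not binding.

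The values below are the authors' normalized values on a linear scale, which are reads relative to a library size scaled by edgeR's TMM method. Values of single libraries are given in the order of replicates 1 to 3, scrambled siRNA first. Libraries held 45546981 to 85729785 reads, and 1 read was worth 0.0121 to 0.0202. The TMM factors were 0.881 to 0.968 with scrambled siRNA and 1.08 to 1.09 with *DUSP6* siRNA. *DUSP6*, the target and a phosphatase that inactivates ERK, had values of 209, 110 and 114 with scrambled siRNA against 39.4, 24.5 and 35.2 with *DUSP6* siRNA (log2 fold change -2.05, limma adjusted p = 0.000309). Exons of another gene cover 28.6% of its exon sequence. All 7 luminal and HER2 markers, *ERBB2*, *EPCAM*, *KRT8*, *KRT18*, *KRT19*, *GATA3* and *FOXA1*, were between 214 and 1068 in every library, with a summed value of 3654 to 4978 with scrambled siRNA and 2501 to 2701 with *DUSP6* siRNA. Exons shared with other genes make up 6.93% of *ERBB2*, 7.63% of *KRT8* and 17.1% of *KRT18*. Leukocyte and endothelial markers stayed at or below 0.253. Of the fibroblast genes, *COL1A1* was 80.7 to 105 with scrambled siRNA and 162 to 192 with *DUSP6* siRNA, with *COL3A1* at or below 0.0383 in every library. Of the basal markers, *TP63* is described below, and *KRT5* and *KRT14* were under 1 in every library.

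*POU2F3* (Entrez gene 25833) is found on chromosome 11 (120236638 to 120319945, GRCh38). The 6 libraries gave it values of 40.2, 42.8 and 28.1 with scrambled siRNA against 4.19, 3.02 and 3.29 with *DUSP6* siRNA. Every *DUSP6* siRNA library was far below the lowest scrambled siRNA library, replicate 3. The means were 37.0 ± 7.83 and 3.50 ± 0.610 (SD, n = 3 each), which left 9.45% of the mean, and 7.06% to 14.9% over the 9 pairs of libraries. The log2 fold change of -3.06 (standard error 0.17) was the largest fall of all genes tested. It was computed on log2(value + 1), which understates the change of a gene that ends this low: with 0.1 added in place of 1 it was -3.36. The library with the fewest held 207 reads of *POU2F3* (95% exact Poisson interval 180 to 237, which covers counting error only), against 2232 to 2700 reads with scrambled siRNA. Among the genes tested, *POU2F3* went from percentile 54.6 to percentile 12.6 of the mean value. In RNA from a whole culture, fewer cells with the transcript and less transcript per cell cannot be told apart.

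*TNS1* (Entrez gene 7145, chromosome 2, 217799791 to 218033982) was almost level with *POU2F3* in value and in fall. It stood at 50.9, 34.2 and 22.7 with scrambled siRNA against 3.78, 2.79 and 3.32 with *DUSP6* siRNA. The groups did not overlap, but the scrambled siRNA libraries were spread widely, with replicate 1 highest and replicate 3 lowest and a coefficient of variation of 39.5%. The means were 35.9 ± 14.2 and 3.30 ± 0.497 (SD, n = 3 each), which left 9.18% (5.48% to 16.7% over pairs of libraries). The log2 fold change was -3.04 (standard error 0.25), and it was -2.75 without scrambled siRNA replicate 1. With 0.1 added in place of 1 it was -3.34, so the fall of *TNS1* is understated as that of *POU2F3* is. The fewest reads in any library were 187 (161 to 216).

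*ALDH3B2* (Entrez gene 222, chromosome 11, 67662155 to 67681252) started far higher. Its values were 403, 351 and 327 with scrambled siRNA against 59.2, 38.8 and 50.6 with *DUSP6* siRNA. The scrambled siRNA libraries lay close together and well above the others. The means were 360 ± 38.9 and 49.6 ± 10.2 (SD, n = 3 each), which left 13.8% (9.64% to 18.1%), and the log2 fold change was -2.85 (standard error 0.15). The gene went from percentile 97.3 to percentile 64.2 of the mean value.

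*CLCA2* (Entrez gene 9635, chromosome 1, 86424171 to 86456553) was among the most abundant transcripts of the cells with scrambled siRNA, at percentile 99.7 of the mean value. Its values were 1407, 1515 and 1256 with scrambled siRNA against 254, 163 and 197 with *DUSP6* siRNA. The lowest scrambled siRNA library was 4.94 times the highest *DUSP6* siRNA library. The means were 1393 ± 130 and 205 ± 46.3 (SD, n = 3 each), which left 14.7% (10.7% to 20.3%), and the log2 fold change was -2.78 (standard error 0.16). Unlike *POU2F3* and *TNS1*, the gene stayed abundant after *DUSP6* siRNA, at percentile 94.1.

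**Figure D1:**
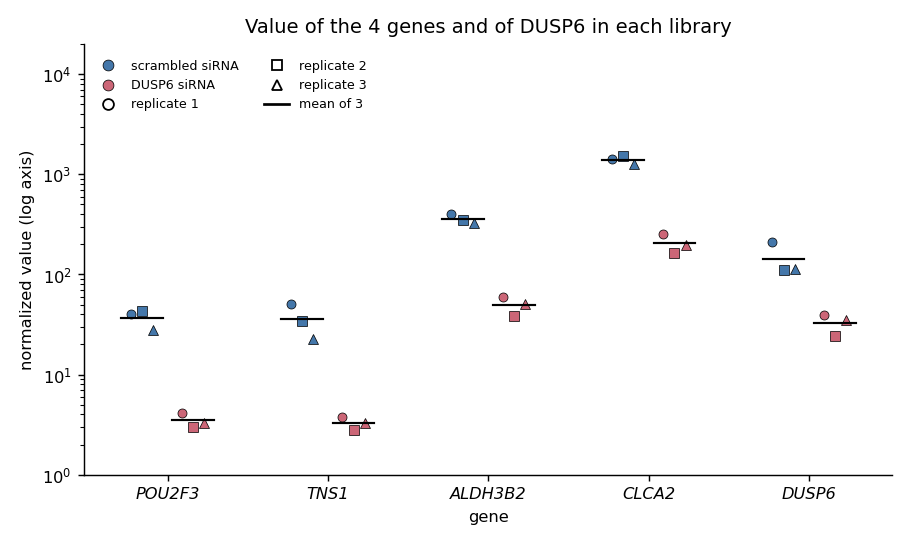
Normalized value (log axis) of *POU2F3*, *TNS1*, *ALDH3B2*, *CLCA2* and the siRNA target *DUSP6* in each of 6 libraries; blue, scrambled siRNA; red, *DUSP6* siRNA; the symbol gives the replicate and the bar the mean of 3. In each of the 4 genes the groups lie apart, with *CLCA2* between 163 and 254 and *POU2F3* between 3.02 and 4.19 after *DUSP6* siRNA.

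Per kilobase of exon (GENCODE 44, all exons of a gene merged), the order of the levels was *CLCA2*, *ALDH3B2*, *POU2F3* and *TNS1* in both groups. With scrambled siRNA the levels per kilobase were 316 ± 29.5, 99.9 ± 10.8, 5.52 ± 1.17 and 2.19 ± 0.867 (SD, n = 3). With *DUSP6* siRNA they were 46.5 ± 10.5, 13.7 ± 2.83, 0.522 ± 0.0910 and 0.201 ± 0.0304. The means of neighbours in this order differed by more than the sum of their SDs in each group.

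In all 4 genes the groups did not overlap, and 31.1% of the genes tested were lower without overlap. Since the genes were chosen on this contrast, nothing is read from that count. The libraries also had an order within the groups. *DUSP6* siRNA replicate 1 was highest and replicate 2 lowest in all 4 genes and in *DUSP6* itself, an order that 18.2% of all genes tested and 37.3% of the genes called lower had. Scrambled siRNA replicate 3 was lowest in all 4 genes, as it was in 33.1% of all genes tested and 44.4% of those called lower. It was not lowest for *DUSP6*, where replicate 2 was.

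*CREB3L1* (log2 fold change -2.89), *S100A9* (-2.80) and *P2RY2* (-2.78) ranked between the 4 genes, and *SUSD2* (-2.68) and *GGT6* (-2.61) came just after *CLCA2*. *CREB3L1* codes for a membrane-bound transcription factor, *S100A9* for a calcium-binding protein and *P2RY2* for a receptor of extracellular nucleotides. *P2RY2* was 73.4, 66.9 and 76.5 with scrambled siRNA against 10.2, 8.47 and 10.3 with *DUSP6* siRNA, a narrower spread than that of *TNS1*, although 37.5% of its exon sequence is shared with another gene. *CREB3L1*, in contrast, ranged from 12.2 to 50.9 within the scrambled siRNA group. Ranks depended on how low values were treated. With a pseudocount of 0.1, *POU2F3* and *TNS1* stayed first and second, while *ALDH3B2* ranked 13th and *CLCA2* 18th, and by edgeR on the recovered reads the 4 genes ranked 7th, 5th, 20th and 27th.

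The genes most alike to each of the 4 over the 6 libraries were found by Pearson's r of log2(value + 1). The 6 points fall into 2 groups that differ in all these genes, so r mostly restates that difference. For *POU2F3* they were *CEP55*, *SIRPA* and *ANXA6*, and for *TNS1* *RGS3*, *ZSWIM1* and *CDK5RAP2*. For *ALDH3B2* they were *PLP2*, *DNAJC9* and *TDP2*, and for *CLCA2* *CRAT*, *MGLL* and *NBEAL2*. Of these, *PLP2* shares 33.3% and *DNAJC9* 56.5% of its exon sequence with a neighbour. The r was at least 0.9989 for all 12. Their log2 fold changes were smaller than those of the 4 genes, from -0.30 for *TDP2* to -2.20 for *MGLL*, and between 229 and 278 genes had an r above 0.99 with each of the 4.

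The paralogs of the 4 genes were not used in choosing them. Of 11 listed, *CLCA4* was not analysed here, 10 were in the table and 7 passed the filter on low values. At an adjusted p under 0.05 in limma, 5 of the 7 fell and 0 rose, where 24.7% of all 12862 genes tested fell and 19.7% rose. No paralog rose at an unadjusted p under 0.05 either, and edgeR called 5 lower and 0 higher. The median log2 fold change of the 7 was -0.95, against -0.01 over all genes tested. *TNS4* and *POU2F2* had a mean under 1 in a group and passed the filter through the other, and of the 5 paralogs with a mean of at least 1 in both groups 4 fell and 0 rose. All these counts of paralogs that fell include *ALDH3B1*, which is uncertain because it shares sequence with *ALDH3B2*, as described below.

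The other tensins were lower as well. *TNS3*, a tensin close to *TNS1* in build, was 76.0, 50.6 and 49.5 with scrambled siRNA against 24.3, 15.9 and 20.7 with *DUSP6* siRNA. All libraries of the *DUSP6* siRNA group were below all of the other group (log2 fold change -1.48, standard error 0.19, limma adjusted p = 0.000436). *TNS2* was 32.3, 35.2 and 26.0 against 17.4, 14.0 and 15.2, likewise without overlap (-0.95, standard error 0.14, limma adjusted p = 0.000664), although 5.58% of its exon sequence is shared with other genes. *TNS4*, the short tensin that lacks the actin-binding part, was 7.42, 4.48 and 3.65 against 0.768, 0.416 and 0.649 (-1.90, standard error 0.21). As it passed the filter only through its scrambled siRNA values, no p is given for it. The sum of *TNS2*, *TNS3* and *TNS4* was 95 ± 18.7 with scrambled siRNA and 36.5 ± 6.10 with *DUSP6* siRNA (SD, n = 3), so 38.4% of it was left, against 9.18% of *TNS1*. Per kilobase of exon, *TNS1* with scrambled siRNA (2.19 ± 0.867) was below *TNS3* (4.67 ± 1.19) and *TNS2* (3.91 ± 0.588), and with *DUSP6* siRNA it was the second lowest of the 4 tensins, above *TNS4* (0.125 ± 0.0368).

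Of the octamer-binding factors nearest to *POU2F3*, *POU2F1*, which is expressed in most cell types, was 61.7, 51.8 and 52.5 with scrambled siRNA against 40.5, 42.1 and 38.5 with *DUSP6* siRNA. It fell without overlap, by a small margin (log2 fold change -0.44, standard error 0.10, limma adjusted p = 0.00714). *POU2F2*, the lymphoid member, was near 1 in every library and did not pass the test (0.21, limma adjusted p = 0.219). Together the pair kept 73.9% of its summed value.

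Among the paralogs of *ALDH3B2*, *ALDH3B1* fell and *ALDH3A2* did not pass the test. *ALDH3B1*, the other gene of the B type, was 4.28, 4.62 and 6.29 with scrambled siRNA against 2.14, 1.70 and 1.68 with *DUSP6* siRNA. The groups did not overlap (-1.08, standard error 0.15, limma adjusted p = 0.000512). *ALDH3B1* and *ALDH3B2* are near-identical in stretches: 35 of 3769 words of 50 bases in *ALDH3B2* transcripts (0.929%) also occur in *ALDH3B1*, while no other of these pairs shared any. How reads that match both were counted is not stated in the sources used here, so *ALDH3B1*, the far lower of the pair, is uncertain. *ALDH3A2*, the fatty aldehyde dehydrogenase of most tissues, was 104 to 114 with scrambled siRNA and 94.6 to 99.7 with *DUSP6* siRNA (-0.17, limma adjusted p = 0.121). *ALDH3A1* had a mean value under 1 and was not tested. Of the paralogs of *CLCA2*, *CLCA1* and the pseudogene *CLCA3P*, nearly all of whose exons are shared, had at most 3 reads in any library.

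**Figure D2:**
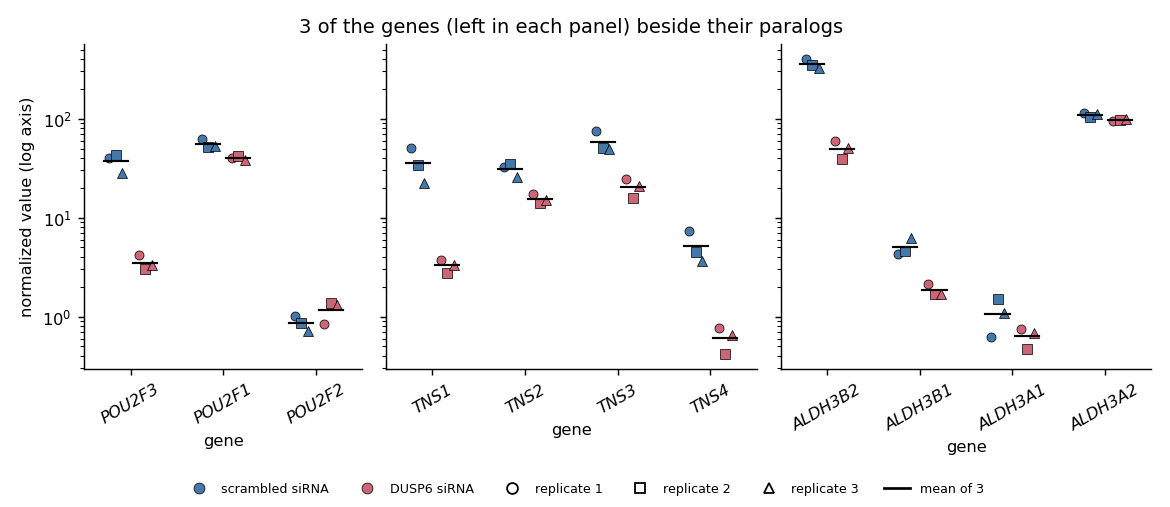
Normalized value (log axis) of *POU2F3*, *TNS1* and *ALDH3B2* (left in each panel) beside their paralogs in each of 6 libraries, with colours and symbols as in the plot of the 4 genes and bars for the mean of 3. *POU2F1*, *TNS2*, *TNS3*, *TNS4* and *ALDH3B1* lie apart between the groups, with *ALDH3B1* uncertain because it shares sequence with *ALDH3B2*. *ALDH3A2* was not called, though its values after *DUSP6* siRNA (94.6 to 99.7) lie below those with scrambled siRNA (104 to 114).

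Of 13 other POU factors and POU2F cofactors in the table, 2 were tested, and 1 of these only through its scrambled siRNA values, so no share is drawn from them. *POU5F1*, the pluripotency factor OCT4, was 3.70, 3.14 and 1.52 against 0.526, 0.318 and 0.402 (log2 fold change -1.37). It is the gene that passed the filter through its scrambled siRNA values, so no p is given for it, and 8.64% of its exon sequence lies over *TCF19*. *POU3F2*, a neural factor, fell by 0.48 on the log2 scale (limma adjusted p = 0.0105). *POU2AF1* and *COLCA2*, cofactors of the POU2F family, were at or below 0.0309 in every library.

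Most of the tuft cell genes that go with *POU2F3* elsewhere had low values. Of 23 in the table, 16 were not tested, among them *TRPM5*, the taste cation channel (at most 0.0575, 7.06% of its exons shared), *GFI1B*, a tuft cell factor (at most 0.0192, 5.72% shared), and *GNAT3*, gustducin (at most 0.0844). Some untested genes also lay apart between the groups. Means went from 0.291 to 1.60 for *PLCG2* (24.3% of its exons shared), from 0.611 to 1.08 for *SH2D6* (20.5% shared) and from 0.0681 to 0.254 for *PTGS1*. They went down from 0.0671 to 0.00923 for *GNAT3* and from 0.425 to 0.0990 for *ALOX5AP*. Of the 7 tested, 3 fell (42.9%, against 24.7% of all genes) and 1 rose (14.3%, against 19.7%). With a mean of at least 1 in both groups there were 5, of which 2 fell and 1 rose. *AVIL*, which codes for the actin-binding advillin, was 10.6, 12.8 and 10.6 against 5.96, 4.72 and 5.92 (log2 fold change -0.92, limma adjusted p = 0.000637), with 6.93% of its exon sequence shared with other genes. *PLCB2*, the phospholipase of taste signalling, which passed the filter through its scrambled siRNA values, had a log2 fold change of -0.84. *ITPR2*, an inositol trisphosphate receptor, fell by 0.32 on the log2 scale. *DCLK1*, a kinase used as a tuft cell marker, rose from 29.9 ± 4.52 to 40.6 ± 4.6 (SD, n = 3). The call of *PLCB2* was lost without scrambled siRNA replicate 1 or 3 or *DUSP6* siRNA replicate 1 or 2. That of *DCLK1* was lost without scrambled siRNA replicate 1 or 2 or *DUSP6* siRNA replicate 1 or 3. The number of tuft cell genes lower was 1 without scrambled siRNA replicate 1 and without *DUSP6* siRNA replicate 1 or 2. The number higher was 2 without scrambled siRNA replicate 3 and 0 without *DUSP6* siRNA replicate 1 or 3.

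In skin, *POU2F3* is expressed with genes of keratinocyte differentiation. Of 25 such genes in the table, 12 were not tested, among them *IVL* (at most 0.384) and *KRT1* (at most 0.202). Of the 13 tested, 5 fell, 3 rose and 5 did not pass. The shares were 38.5% lower and 23.1% higher, against 24.7% and 19.7% of all genes, with a median log2 fold change of -0.02. *TP63*, the master regulator of squamous epithelium, was 15.2, 8.14 and 6.97 with scrambled siRNA against 1.96, 1.37 and 1.95 with *DUSP6* siRNA. The groups did not overlap, and scrambled siRNA replicate 1 was the highest (-1.95, limma adjusted p = 0.000339). *CDSN*, corneodesmosin, fell by 2.17 on the log2 scale, but 93.7% of its exon sequence lies over *PSORS1C1*, so the value is uncertain. *EVPL*, envoplakin, fell by 0.95 and *GRHL1*, a grainyhead factor, by 0.68. *KLF4*, a barrier factor, rose from 32.4 ± 0.845 to 75.8 ± 12.6 (SD, n = 3, log2 fold change 1.19, limma adjusted p = 0.000146), with 9.75% of its exons shared. *DSC2*, desmocollin, and *KRT10*, a keratin of upper skin layers, rose by 0.78 and 0.35, and without *DUSP6* siRNA replicate 3 only 1 gene of the list was called higher.

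Among 28 tested genes of integrin adhesion, where tensins act, 13 fell (46.4%, against 24.7% of all genes) and 1 rose (3.57%, against 19.7%). The other 14 did not pass, and the median was -0.27. *STARD13*, of a family that binds tensins, was 16.5, 11.7 and 11.4 against 5.98, 5.18 and 5.48 (log2 fold change -1.10, limma adjusted p = 0.000511). *ITGB4* (-0.86) and *ITGA6* (-0.71, 5.26% shared), the chains of the laminin receptor of hemidesmosomes, fell as well. *ITGAV*, the alpha V chain, rose by 0.43. *ITGB1*, the common beta chain, was 370, 402 and 236 against 379, 455 and 399 and did not pass (limma adjusted p = 0.184). The number higher was 2 without scrambled siRNA replicate 3 and 0 without *DUSP6* siRNA replicate 2.

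Of the 9 other aldehyde dehydrogenases tested, 3 fell (33.3%, against 24.7% of all genes) and 1 rose (11.1%, against 19.7%). The other 5 did not pass, and the median was 0.12. *ALDH1B1* was 24.7, 17.4 and 29.7 against 9.89, 7.70 and 8.81 (log2 fold change -1.32, limma adjusted p = 0.000578). *ALDH4A1*, of proline breakdown, fell by 1.07 and *ALDH6A1*, of valine breakdown, by 0.88 on the log2 scale, the latter with 10.0% of its exons shared. *ALDH16A1*, which lacks a catalytic cysteine, rose by 0.67, with 10.7% of its exons shared.

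Beside *CLCA2*, 8 genes of the ANO, BEST and TTYH families were tested, a list called chloride channels here although not every member is one. Among these, 2 fell, 1 rose and 5 did not pass, with a median of -0.05. The share lower, 25%, was that of the background (24.7% of all genes), and the share higher was 12.5%, against 19.7%. *ANO1*, the calcium-activated chloride channel TMEM16A that CLCA1 is known to act on, was 145, 142 and 140 with scrambled siRNA against 38.9, 27.2 and 34.7 with *DUSP6* siRNA. Its scrambled siRNA libraries were nearly equal, and the groups lay far apart (log2 fold change -2.07, standard error 0.13, limma adjusted p = 8.41e-06). Exons of *ANO1-AS1* and another gene cover 14.5% of its exon sequence. *TTYH3*, of the tweety family, fell by 0.80. *ANO8* rose by 0.34, a call that was lost on leaving out any library but scrambled siRNA replicate 3, when 0 genes of the list were higher.

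Since *CLCA2* and *ALDH3B2* were abundant in these cells, genes of apocrine breast epithelium were set beside them. Of 13 tested, 9 fell (69.2%, against 24.7% of all genes), 3 rose (23.1%, against 19.7%) and 1 did not pass, and the median was -0.79. *AZGP1*, zinc alpha-2 glycoprotein, was 425, 583 and 388 against 148, 120 and 138 (log2 fold change -1.76, limma adjusted p = 4.91e-05). *FASN*, fatty acid synthase (-1.38), *GGT1*, a glutamyltransferase with 56.5% of its exons shared (-1.15), and *SPDEF*, an ETS factor of luminal cells (-1.05), fell as well. *DHRS2*, a dehydrogenase, rose from 3.02 ± 0.936 to 7.75 ± 1.47 (SD, n = 3). *ALCAM*, an adhesion molecule, rose by 0.53 on the log2 scale. Only 1 gene of the list was called higher without *DUSP6* siRNA replicate 2.

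**Figure D3:**
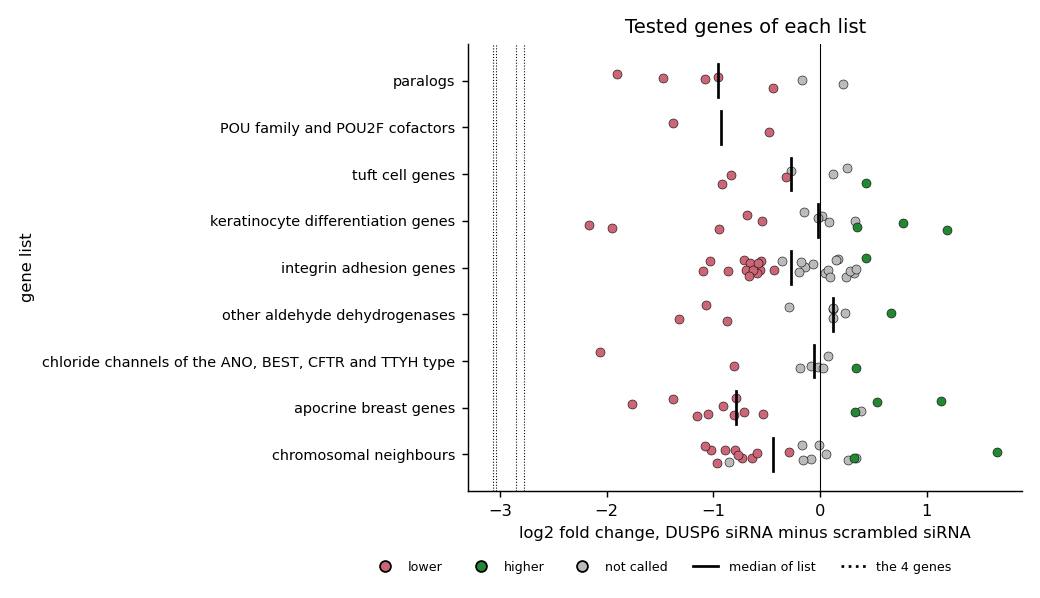
Log2 fold change (*DUSP6* siRNA minus scrambled siRNA) of the tested genes of each list; red, lower and green, higher at a limma adjusted p under 0.05; grey, not called; black bars, medians; dotted lines, the 4 genes, which are in no list. No listed gene fell as far as the 4, and the lowest, *CDSN*, stands at -2.17.

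The chromosomal neighbours were taken as the 5 genes of the table on each side of each gene. Of 40, 20 were tested, 10 fell (50%, against 24.7% of all genes) and 2 rose (10.0%, against 19.7%), and the median was -0.44. With a mean of at least 1 in both groups there were 19, of which 9 fell and 2 rose. Those that fell include *ALDH3B1*, which is also among the paralogs and is uncertain for the reason given there. The number higher was 1 without scrambled siRNA replicate 1 and without any of the *DUSP6* siRNA libraries. Around *POU2F3*, 5 of 6 tested fell, or 4 of 5 with a mean of at least 1 in both groups, and 0 rose (0 at an unadjusted p under 0.05 and 0 by edgeR). *NECTIN1*, an adhesion receptor, was 319, 275 and 294 against 151, 144 and 141 (log2 fold change -1.02, limma adjusted p = 4.99e-05). *OAF* (-0.97), *TRIM29* (-0.89), an epithelial TRIM protein, and *ARHGEF12*, a guanine nucleotide exchange factor (-0.63), fell too, each by far less than *POU2F3*. *LOC102724301* stood at -0.73, with values under 1 after *DUSP6* siRNA. *TLCD5* did not pass (0.33, limma adjusted p = 0.103).

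Around *TNS1*, *IGFBP5* and *IGFBP2*, binding proteins of insulin-like growth factors, fell and 0 genes rose of 3 tested (0 at an unadjusted p under 0.05 and 0 by edgeR). *IGFBP5* was 861, 369 and 372 against 313, 278 and 259 (-0.80, limma adjusted p = 0.0472), so scrambled siRNA replicate 1 stood apart, and 7.53% of its exons are shared. *IGFBP2* fell by 0.29. Both calls were lost in several alternatives, among them quantile normalization and leaving out any *DUSP6* siRNA library.

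Around *ALDH3B2*, 2 of 6 tested genes were called, in opposite directions. *UNC93B1*, which carries Toll-like receptors to endosomes, was 9.0, 8.93 and 11.4 with scrambled siRNA against 35.8, 29.5 and 33.6 with *DUSP6* siRNA. It rose without overlap (1.66, standard error 0.13, limma adjusted p = 2.61e-05) and lies between *ALDH3B2* and *ALDH3B1*, both of which were lower. *NDUFV1*, *NUDT8*, *FAM86C2P* and *NDUFS8* did not pass, with log2 fold changes of -0.16 to 0.06, and 12.0% of the exons of *NDUFV1* and 51.7% and 22.2% of those of the 2 models of *FAM86C2P* are shared. Around *CLCA2*, *ODF2L* (-0.77) and *SH3GLB1* (-0.59) fell and *SELENOF* (0.31) rose of 5 tested. *CCN1*, a matricellular protein gene, was 82.0, 46.6 and 38.0 against 38.2, 18.6 and 33.4, overlapped between the groups and did not pass (-0.85, limma adjusted p = 0.0504).

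**Figure D4:**
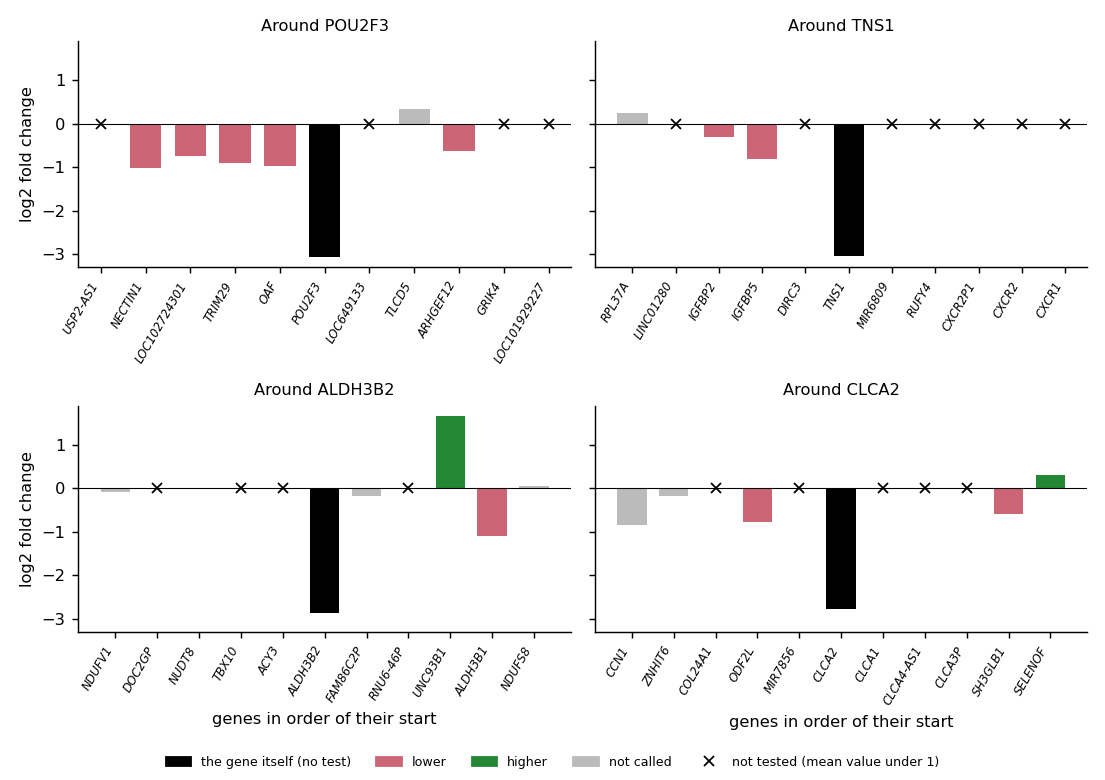
Log2 fold change of each of the 4 genes (black, not tested) and of the 5 table genes on each side in the order of their starts; red, lower and green, higher at a limma adjusted p under 0.05; grey, not called; crosses, mean value under 1. Beside *POU2F3* at -3.06 the tested neighbours run from -1.02 to 0.33, and beside *ALDH3B2* *UNC93B1* stands at 1.66.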

How the data were processed

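RNA of MDA-MB-453 cells was sequenced in 6 libraries with a stranded mRNA kit. Per the paper's methods, alignment to hg38 and assignment to RefSeq genes were done by the authors with Rsubread. The submitters' processing notes name bcl2fastq and edgeR. The deposited signal values are normalized and linear, with 1 for each gene in each library. All values (100%, within 0.001 reads) were whole reads times 1 step per library, and the steps held edgeR's TMM factors (largest difference 2.55e-15), so depth was adjusted for by the authors. Counting is not stated to use strand, and reads of overlapping genes may be shared.

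Groups were taken from the labels. limma 3.58.1 in R 4.3.3 (lmFit, eBayes with a trend) was fitted to log2(value + 1), leaving out genes whose mean value was under 1 (12862 of 22807 remained), with Benjamini-Hochberg adjustment and calls under 0.05. With 3 libraries against 3, an exact permutation test cannot give a p below 0.1 and was not used. limma and edgeR 4.0.16 were tested on simulated data. The 4 genes, the gene lists and the motifs were chosen with earlier results of these data known. Named were the 4 genes and their paralogs, up to 4 lower and 4 higher called genes of each other list with the largest change, all called neighbours, the 3 genes most alike and the genes ranked between and 2 after the 4. Untested genes, genes that did not pass and the cell markers were named besides, after their values were seen. Some genes that this rule names are not reported here. Exon overlaps above 5% (GENCODE 44) were stated. The settings varied were the pseudocount (0.1), the filter (none, or a mean of 10), the scaling (quantiles, or median of ratios), the variance trend (none), the replicate number as a block, the tool (edgeR's quasi-likelihood fit of the recovered reads) and the libraries (each left out in turn).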

Additional observations from a re-analysis of the deposited data

How the results depend on the processing

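Neither the 4 genes nor any call of the 50 other genes followed by name turned direction in those of the 14 alternatives in which the gene was tested, and 12 of the 50 lost their call in at least 1, among them *ALCAM*, *ANO8*, *DCLK1*, *DSC2*, *IGFBP2*, *IGFBP5*, *ITGAV*, *ITPR2*, *KRT10*, *PLCB2* and *SELENOF*. The fold change of *POU2F3* was -3.36 with a pseudocount of 0.1 and -3.38 by edgeR, and that of *TNS1* was -3.34 and -3.42. That of *CLCA2* was -2.51 under quantile normalization. Leaving out each library gave -3.25 to -2.95 for *POU2F3*, -3.32 to -2.75 for *TNS1*, -2.99 to -2.69 for *ALDH3B2* and -2.95 to -2.63 for *CLCA2*. Of all genes tested, 2887 were lower and 2958 higher under quantile normalization, against 3179 and 2540. With a mean of at least 10, where fewer genes are tested, 1639 genes were higher, 3 paralogs, 0 POU genes, 1 tuft cell gene and 3 keratinocyte genes were lower. With no filter, 1 POU gene, 4 tuft cell genes, 3 integrin adhesion genes, 2 other aldehyde dehydrogenases and 0 chloride channels were higher, and 5 tuft cell genes and 4 chloride channels lower. Quantile normalization called 4 integrin adhesion genes and 2 other aldehyde dehydrogenases higher. The cause of these shifts was not tested.

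Leaving out each library gave 1535 (without *DUSP6* siRNA replicate 2) to 3213 (without scrambled siRNA replicate 3) genes higher, and 1686 without *DUSP6* siRNA replicate 3. The tuft cell genes lower ranged from 1 to 2 and higher from 0 to 2. The genes higher ranged from 1 to 3 in the keratinocyte list, 0 to 2 in integrin adhesion, 0 to 1 in the chloride channels, 1 to 3 in the apocrine list and 1 to 3 among neighbours. Replicate numbers did not pair the libraries, as same-numbered deviations correlated at 0.005, 0.087 and -0.076. With a replicate block, 3096 genes were lower and 2495 higher, and 0 chloride channels were higher, with *ANO8* lost. Depth was no limit for the 4 genes, with at least 187 reads in each library, but genes of a few reads could not be tested.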
